A study of Homo sapiens with 4 samples.

Results

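CD24, EDN1 and INHBB are 3 of the 58233 genes in the counts table of the series, and they were chosen by their log2 fold changes of CBC against PBS, which were positive in MIA PaCa-2 cells and negative in PANC-1 cells. Both are long-established lines of human pancreatic cancer, recorded as wild type. The agent, cannabichromene (CBC), is a compound of the hemp plant that does not intoxicate. The dose over 24 h was 35 μM for MIA PaCa-2 and 30 μM for PANC-1, and the controls are labelled PBS, while the methods speak of a vehicle control and name acetonitrile as the solvent of CBC. Poly(A) RNA was sequenced in 4 libraries, 1 for each line and treatment, so differences within a line were not replicated, and the line cannot be told apart from the dose. The values that chose the 3 genes are given below as a description, with no test.

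The 3 genes encode proteins that act at the cell surface or outside the cell. CD24 is a small, heavily glycosylated protein held in the membrane by a glycosylphosphatidylinositol (GPI) anchor. It binds P-selectin and, through its sialic acids, Siglec-10 on macrophages, where it restrains phagocytosis, and it is used with CD44 and EPCAM to mark stem-like cells of pancreatic cancer. EDN1 encodes the precursor of endothelin-1, a vasoconstrictor peptide that is released by furin and endothelin-converting enzyme and signals through the receptors EDNRA and EDNRB. INHBB encodes the beta B subunit of the TGF-beta family, whose homodimer is activin B and whose dimer with the alpha subunit INHA is inhibin B. Activins signal through type II and type I receptors to SMAD2 and SMAD3.

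On GRCh38, CD24 (ENSG00000272398) lies on the minus strand of chromosome 6 from 106969831 to 106975627, EDN1 (ENSG00000078401) on the plus strand of chromosome 6 from 12290361 to 12297194, and INHBB (ENSG00000163083) on the plus strand of chromosome 2 from 120346136 to 120351803. No other gene of the counts table that has a position overlapped any of them on either strand. The 250 bases before the annotated 5′ end of each gene are shown because the 3 genes moved alike in each line. They come from RefSeq (GRCh38.p14), are written 5′ to 3′ on the strand of the gene, and capitals mark the motif matches named below. The windows are chr6:106975628-106975877 (CD24), chr6:12290111-12290360 (EDN1) and chr2:120345886-120346135 (INHBB).
CD24: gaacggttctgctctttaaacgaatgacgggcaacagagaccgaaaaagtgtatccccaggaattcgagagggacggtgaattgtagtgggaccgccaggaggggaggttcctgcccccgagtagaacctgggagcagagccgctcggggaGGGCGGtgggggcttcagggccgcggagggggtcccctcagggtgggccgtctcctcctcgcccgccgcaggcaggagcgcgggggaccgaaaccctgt
EDN1: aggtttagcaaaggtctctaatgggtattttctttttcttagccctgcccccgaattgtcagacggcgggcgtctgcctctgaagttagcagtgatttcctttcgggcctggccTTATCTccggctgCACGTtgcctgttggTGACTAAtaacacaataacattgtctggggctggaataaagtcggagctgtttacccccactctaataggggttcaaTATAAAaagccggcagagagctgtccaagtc
INHBB: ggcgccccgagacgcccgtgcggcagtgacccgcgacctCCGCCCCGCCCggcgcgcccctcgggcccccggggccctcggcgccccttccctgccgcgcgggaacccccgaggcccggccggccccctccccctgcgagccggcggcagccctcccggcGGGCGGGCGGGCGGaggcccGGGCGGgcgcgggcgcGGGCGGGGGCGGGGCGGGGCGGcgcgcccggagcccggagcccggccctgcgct

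The 3 windows differed in composition, with a GC content of 65.6% for CD24, 49.2% for EDN1 and 89.6% for INHBB, against a median of 58.0% over 34943 RefSeq windows of the same length. Letters were searched on both strands, and matches of one motif may overlap. The EDN1 window held TATAAA 31 bases before the start, which 10.8% of all windows hold. It also held TGACTAA, an AP-1-like motif, 108 bases before the start (1.62% of windows), AGATAA, bound by GATA factors, at 136 bases on the minus strand (9.19%) and ACGTG, the core of the hypoxia response element, at 123 bases on the minus strand (18.5%). The CD24 window held 1 match to the GC box GGGCGG and the INHBB window 10, while 42.5% of all windows hold at least 1. Neither TGACTCA, the AP-1 motif in 4.22% of windows, nor CCAAT, in 32.0%, occurred in any of the 3. No motif was found in all 3 windows. A match is a description of the letters and not of binding.

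The libraries held 21742775 to 27903667 counts on genes. Levels are depth-normalised counts (CPM) on library sizes scaled by the trimmed mean of M-values (TMM). Log2 fold changes compare CBC with PBS in edgeR with a prior count of 2, and the study's threshold of 1 in either direction was used for genes with at least 1 CPM in at least 1 of the 2 libraries of a line. The 95% intervals of count ratios come from the exact binomial distribution (Clopper-Pearson) and cover counting error only, and a count of 0 allows up to 3 counts, which is 0.11 to 0.135 CPM. In bulk RNA, fewer cells that carry a transcript and less transcript per cell cannot be told apart.

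CD24 had 1 count in control MIA PaCa-2 cells and 65 counts in CBC-treated MIA PaCa-2 cells, against 10360 counts in control PANC-1 cells and 4586 counts in CBC-treated PANC-1 cells. It was thus nearly unread in untreated MIA PaCa-2 cells, while both PANC-1 libraries held it in abundance. The MIA PaCa-2 levels were 0.045 CPM under PBS and 2.63 CPM under CBC, and the PANC-1 levels 456 and 168 CPM. The log2 fold change was 4.41 in MIA PaCa-2 cells, and the count ratio was 58.4 with an interval from 10.1 to 2343, because it rests on a single control count. In PANC-1 cells the log2 fold change was -1.44, and CBC-treated cells kept 36.8% of the control level (ratio 0.368, interval 0.356 to 0.381). Even after the increase, the MIA PaCa-2 level stayed below that of CBC-treated PANC-1 cells, which was higher by 5.95 on the log2 scale (interval of the count ratio 5.64 to 6.37).

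EDN1 had 6 counts in control and 27 counts in CBC-treated MIA PaCa-2 cells, and 1127 counts in control and 183 counts in CBC-treated PANC-1 cells. The levels were therefore 0.27 and 1.09 CPM in the MIA PaCa-2 libraries, and 49.6 and 6.70 CPM in those of PANC-1. In MIA PaCa-2 cells the log2 fold change was 1.74, which corresponded to a ratio of 4.05 with an interval from 1.64 to 12.0, which reaches below a 2-fold change. The fall in PANC-1 cells was the deepest of the 3 genes, with a log2 fold change of -2.87 and 13.5% of the control level remaining (ratio 0.135, 0.115 to 0.158). EDN1 in MIA PaCa-2 cells passed the minimum of 1 CPM only in the CBC library, and only narrowly. From the deposited CPM with a pseudocount of 1, its log2 fold change there was 0.72, below the threshold.

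INHBB was the only member above 1 CPM in all 4 libraries. It had 32 counts in control and 239 counts in CBC-treated MIA PaCa-2 cells, and 808 counts in control and 261 counts in CBC-treated PANC-1 cells. CBC moved the MIA PaCa-2 level from 1.44 to 9.66 CPM, with a log2 fold change of 2.68 and a ratio of 6.72 whose interval was 2.21 to 3.33 on the log2 scale. The PANC-1 level moved from 35.5 to 9.55 CPM, with a log2 fold change of -1.89 and a ratio of 0.269 (0.233 to 0.309). The CBC libraries of the lines thus held INHBB at nearly equal levels.

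**Figure D1:**
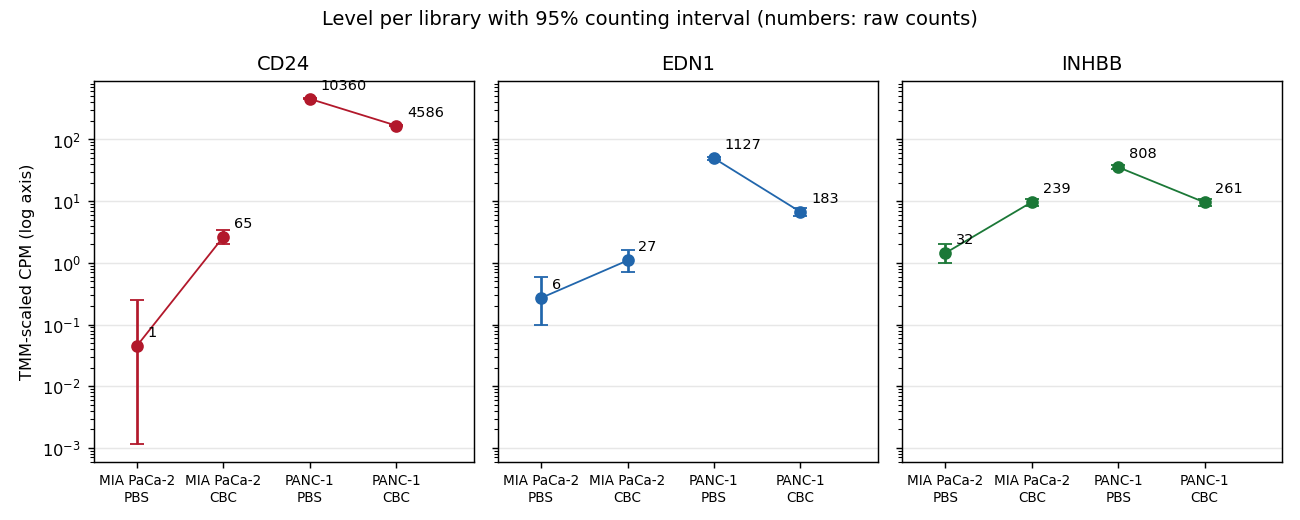
TMM-scaled CPM (log axis) of CD24, EDN1 and INHBB in the 4 libraries, with 95% counting intervals as bars, raw counts as numbers and lines joining the libraries of 1 cell line. Each gene is higher after CBC in MIA PaCa-2 cells and lower after CBC in PANC-1 cells, and INHBB ends at 9.66 and 9.55 CPM in the CBC libraries.

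Under PBS, all 3 genes were higher in PANC-1 cells. The PANC-1 level of CD24 exceeded that of MIA PaCa-2 cells by 11.8 on the log2 scale (count ratio 10130, interval 1818 to 400200), that of EDN1 by 7.14 (ratio 184, 84.1 to 502) and that of INHBB by 4.55 (ratio 24.7, 17.4 to 36.4). Under CBC, the log2 difference between the lines was 5.95 for CD24, 2.53 for EDN1 (ratio 6.14, 4.08 to 9.56) and -0.02 for INHBB (ratio 0.989, 0.826 to 1.18), so the INHBB interval included equal levels. These differences use the same control libraries as the CBC contrasts and are given side by side with them. Per kilobase of exon, the order of the levels in control PANC-1 cells was CD24 with 147 CPM per kb, EDN1 with 24.4 and INHBB with 11.1. In control MIA PaCa-2 cells the order was reversed, with 0.449 CPM per kb for INHBB, 0.133 for EDN1 and 0.0145 for CD24. Among genes with a count and a length, CD24 per kb stood at percentile 99.2 of the PANC-1 control and at percentile 3.01 of the MIA PaCa-2 control. EDN1 went from percentile 90.9 to 60.6 in PANC-1 cells with CBC and from 18.9 to 38.3 in MIA PaCa-2 cells. INHBB went from 79.9 to 59.2 and from 32.7 to 61.7 in the same lines.

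The line difference was also tested with both libraries of each line, by edgeR's quasi-likelihood test with treatment as a block. It is not the contrast that chose the genes, but it uses the same 4 libraries, so it gives no independent support. In MIA PaCa-2 cells, CD24 and EDN1 reached 1 CPM only in the CBC library. PANC-1 cells were higher for CD24 by 7.82 on the log2 scale (SE 1.11, Benjamini-Hochberg adjusted p = 0.00107) and for EDN1 by 4.68 (SE 1.01, adjusted p = 0.00716). INHBB differed by 2.10 (SE 1.06, adjusted p = 0.139) and was not called. The same test called 46.7% of 16381 genes, 25.1% higher and 21.7% lower in PANC-1 cells. Its 1 residual degree of freedom is the difference between the lines in their response to CBC, which the choice of these genes made large. Without the PANC-1 control, and then without the treatment term, EDN1 was no longer called (3.27, adjusted p = 0.0787), and without the CBC-treated MIA PaCa-2 library INHBB was called (3.93, adjusted p = 0.0141).

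Of 12502 genes tested in both lines, 27 (0.216%) lay above 1 in MIA PaCa-2 cells and below -1 in PANC-1 cells, the 3 members among them by choice, and 14 lay the other way. In 1 direction at a time, 11.5% of tested genes were above 1 in MIA PaCa-2 cells and 7.03% were below -1 in PANC-1 cells. The 27 genes, 26 of them protein-coding, had log2 fold changes from 1.0 to 5.69 in MIA PaCa-2 cells (median 2.01) and from -3.54 to -1.01 in PANC-1 cells (median -1.45). The difference of the log2 fold changes between the lines, MIA PaCa-2 minus PANC-1, was 5.85 for CD24, 4.61 for EDN1 and 4.57 for INHBB. As exact conditional intervals of the ratio of the 2 count ratios, these corresponded on the log2 scale to 7.31 (4.78 to 12.6), 4.90 (3.57 to 6.49) and 4.64 (4.06 to 5.26), without the prior count. The members ranked 1, 3 and 4 for this difference when the 9753 genes tested in both lines and averaging 10 CPM or more were ordered, and 2, 8 and 9 among all 12502. They were chosen by the changes that make up this difference, so the ranks are a description and no support. CD24 and EDN1 reached the mean of 10 CPM only through their PANC-1 libraries. With the counting interval wholly past 2-fold in both lines, 12 genes were left, CD24 and INHBB among them and EDN1 not. Where 1 CPM was required in both libraries of a line, or 5 CPM in 1 of them, 6 genes were left and only INHBB of the members, since CD24 and EDN1 were then not tested in MIA PaCa-2 cells.

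**Figure D2:**
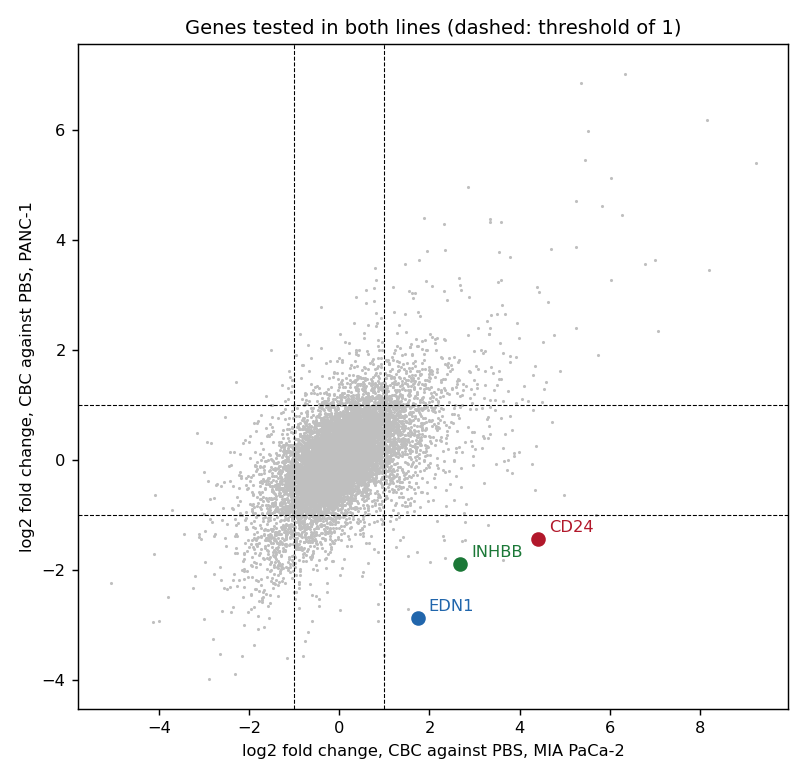
Log2 fold change of CBC against PBS in MIA PaCa-2 (x axis) and PANC-1 cells (y axis) for the 12502 genes tested in both lines, each a grey point, with dashed lines at 1 and -1. CD24, EDN1 and INHBB, in colour, lie in the lower right region that 27 genes occupy.

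The next genes in the order of opposite change with a mean of at least 10 CPM were TENT5C, with a difference of 4.47, and FBXO32, a ubiquitin ligase component of muscle atrophy, with 3.91. TENT5C had 1 and 29 counts in MIA PaCa-2 cells and 678 and 360 counts in PANC-1 cells, and FBXO32 had 9 and 81 and then 1381 and 760. IFIT1, an interferon-induced gene, PLCH2, a phospholipase C, and FERMT1, an activator of integrins, were also higher in MIA PaCa-2 and lower in PANC-1 cells, with differences of 3.67, 3.28 and 3.27. F2RL2, a thrombin receptor family member, and DOCK11, a guanine nucleotide exchange factor, went the other way, with differences of -3.71 and -3.52.

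The 5 genes whose profile over the 4 libraries was nearest to each member were found by the Euclidean distance of centred log2 CPM among the 14148 genes averaging 1 CPM or more. With 4 libraries this likeness is a description. For CD24 they were PLCH2 (distance 1.61), NID1, ABLIM3, ONECUT3 and MAP1B (2.0). In PANC-1 cells only PLCH2 was below -1 (-1.115). NID1 had a log2 fold change of -0.84 there, ONECUT3 -0.25, MAP1B 0.90 and ABLIM3 1.09. NID1, a basement membrane protein, had 0 and 9 counts in MIA PaCa-2 cells and 4508 and 3021 counts in PANC-1 cells. ABLIM3, which binds actin, was higher under CBC in both lines, with 1 and 30 counts in MIA PaCa-2 and 2973 and 7614 counts in PANC-1 cells. For EDN1 they were OPRD1 (0.614), TUBA4A, B3GNT6, CACNA1G and SLC3A1 (1.09), all with at most 1 count in control MIA PaCa-2 cells. OPRD1, the delta opioid receptor, had 0 and 6 counts in MIA PaCa-2 and 211 and 60 counts in PANC-1 cells. For INHBB they were CCDC80 (0.462), ZG16B, NKX3-2, FLRT1 and LINC01348 (0.735). CCDC80, a matrix-associated protein, had 3 and 35 counts in MIA PaCa-2 and 128 and 55 counts in PANC-1 cells. Among the members, EDN1 and INHBB were nearest to each other (2.74), and CD24 was 4.58 from EDN1 and 6.73 from INHBB.

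Of the endothelin pathway list, the converting enzymes were expressed in both lines while the receptors were nearly unread. EDNRB had no count in any library and EDNRA had 1 count, in CBC-treated PANC-1 cells. The ligand genes EDN2 and EDN3 had at most 1 count in any library. ECE1, which cleaves big endothelin-1, stood at 328 (PBS) and 267 CPM (CBC) in MIA PaCa-2 and at 402 and 339 CPM in PANC-1, with log2 fold changes of -0.30 and -0.25. ECE2 had changes of 0.67 and -0.34, and FURIN, which cuts the precursor, had 0.08 and -0.70. MME, the endopeptidase neprilysin, had no count in MIA PaCa-2 cells and went from 13 to 43 counts in PANC-1 cells, a log2 fold change of 1.34. Of the list's 10 genes, 4 were tested in MIA PaCa-2 cells, with EDN1 alone past the threshold and a median of 0.37. In PANC-1 cells 5 were tested, MME higher and EDN1 lower, with a median of -0.34. These counts and medians include EDN1, which was chosen by its changes. Over all tested genes the medians were -0.01 and 0.02. In MIA PaCa-2 cells 11.5% of them were above 1 and 8.97% below -1, and in PANC-1 cells 7.71% were above 1 and 7.03% below -1. Across both lines, edgeR's quasi-likelihood test, blocked on the line, called none of the 5 list genes it tested, with 0 at an unadjusted p under 0.05. DESeq2 called 0 of the list, against 1370 of 13740 genes. Of 16381 genes, edgeR's test called 4.71%, 2.26% higher and 2.45% lower, and 3428 had an unadjusted p under 0.05. A mean over the lines is no measure of an opposite change, so the members are not described by this test.

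In the activin and inhibin list, INHBB, which was chosen by its changes, was the only gene with opposite changes past the threshold. INHBE, the activin E subunit, rose in MIA PaCa-2 cells from 18 to 923 counts (log2 fold change 5.39) and went from 4 to 18 counts in PANC-1 cells, where it stayed under 1 CPM. Across both lines its log2 fold change was 4.71 (SE 0.82, edgeR quasi-likelihood adjusted p = 0.024), higher in both lines. INHBA, the beta A subunit of activin A, had 0 and 1 counts in MIA PaCa-2 cells and 23 and 36 counts in PANC-1 cells. The alpha subunit INHA fell in MIA PaCa-2 cells from 30 to 15 counts (log2 fold change -1.06) and had 16 and 23 counts in PANC-1 cells.

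Among the receptors, the type I receptor ACVR1 rose in both lines, with 145 counts under PBS and 485 under CBC in MIA PaCa-2, and 1309 and 3814 counts in PANC-1. Across both lines its log2 fold change was 1.43 (SE 0.23, edgeR quasi-likelihood adjusted p = 0.021). The activin type II receptor ACVR2B passed the threshold in MIA PaCa-2 cells with 1.04 and had 0.89 in PANC-1 cells, and it was not called across lines (adjusted p = 0.124 from the same edgeR test). ACVR2A had changes of 0.65 and 0.19, and the type I receptor ACVR1B had 0.31 and -0.19. TGFBR3, the co-receptor betaglycan that binds inhibin, fell in PANC-1 cells from 36 to 18 counts (-1.17) and had 1135 and 1121 counts in MIA PaCa-2 cells. The antagonist FSTL3 had changes of 0.22 and 0.08, and follistatin, FST, had at most 3 counts in a library. SMAD2 and SMAD3, the signal transducers, had changes of -0.19 and -0.56 in MIA PaCa-2 cells and of 0.30 and -0.61 in PANC-1 cells. Of the list's 22 genes, 15 were tested in MIA PaCa-2 cells, 4 higher and 1 lower with a median of 0.31. In PANC-1 cells 14 were tested, 1 higher and 2 lower with a median of 0.07. INHBB, chosen by its changes, is among those higher in MIA PaCa-2 and lower in PANC-1 cells, so its part in these counts and medians was given in advance. Over all tested genes 11.5% were higher and 8.97% lower in MIA PaCa-2 cells, and 7.71% and 7.03% in PANC-1 cells. The test across lines called 2 of 17, both higher, against 2.26% higher of all genes.

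**Figure D3:**
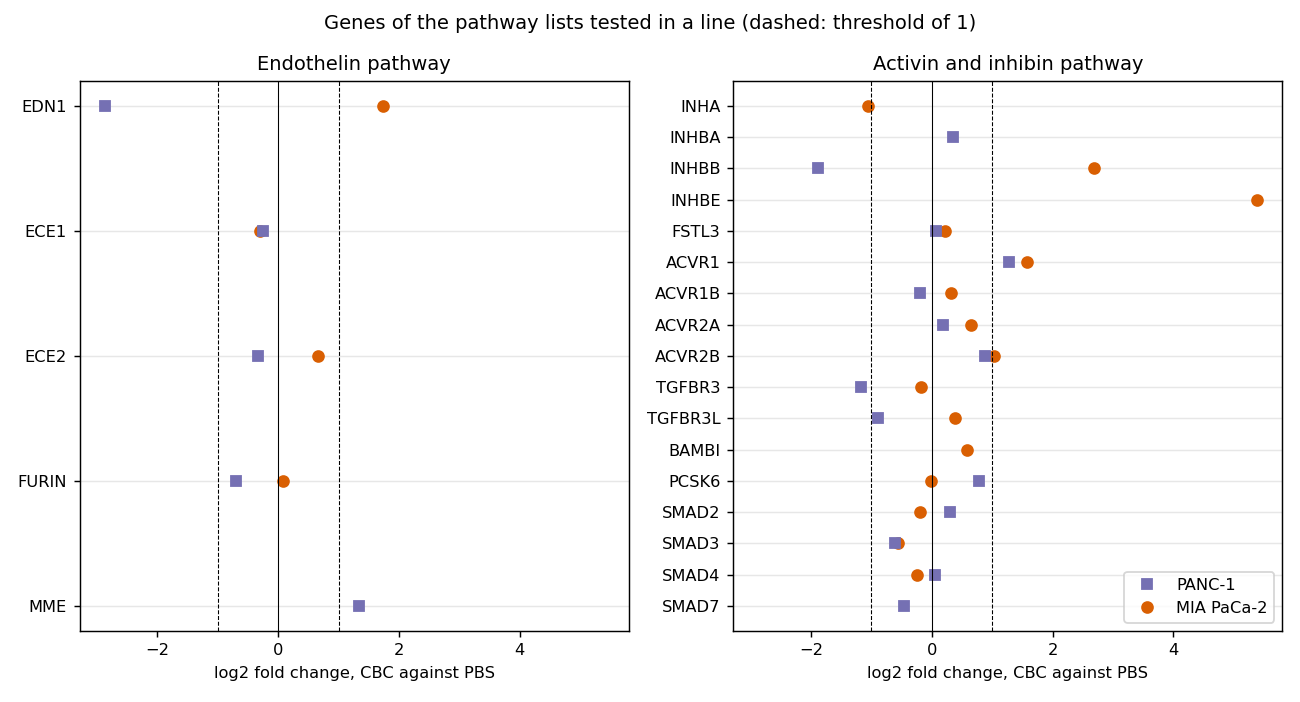
Log2 fold change of CBC against PBS (x axis) for the genes of the endothelin list and of the activin and inhibin list that reached 1 CPM, in MIA PaCa-2 (circles) and PANC-1 cells (squares), with dashed lines at 1 and -1. EDN1 and INHBB are the rows whose symbols lie past the lines on opposite sides, and ACVR1 lies past 1 in both lines.

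Around CD24, neither of its binding partners on other cells, SIGLEC10 of immune cells and SELP, the P-selectin of platelets and endothelium, had a count in any library. CD47, another signal that restrains phagocytosis, had -0.38 (MIA PaCa-2) and -0.37 (PANC-1) on the log2 scale, short of the threshold, and B2M, the light chain of MHC class I, had 0.28 and -0.33. FYN, a SRC family kinase, rose in both, with 27 and 385 counts in MIA PaCa-2 and 6 and 188 in PANC-1, and its log2 fold change across lines was 4.09 (SE 0.48, edgeR quasi-likelihood adjusted p = 0.00932). Of this list's 10 genes, 7 were tested in MIA PaCa-2 cells, CD24 and FYN higher with a median of 0.28, and 6 in PANC-1 cells, FYN higher and CD24 lower with a median of -0.35. CD24 was chosen by its changes, so its part in these counts and medians was given in advance. Of all tested genes, 11.5% were higher and 8.97% lower in MIA PaCa-2 cells, and 7.71% and 7.03% in PANC-1 cells. The test across lines called 1 of 7, against 4.71% of all genes.

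The enzymes that shape the glycans of CD24 and build its anchor were listed separately. NEU1, the lysosomal sialidase, rose in both lines, with 375 and 1907 counts in MIA PaCa-2 and 588 and 1496 in PANC-1, and a log2 fold change of 1.64 across lines (SE 0.32, edgeR quasi-likelihood adjusted p = 0.0323). In MIA PaCa-2 cells ST3GAL1, a sialyltransferase, rose from 11 to 41 counts, while GNE, which starts sialic acid synthesis, fell by 1.54 and C1GALT1C1, the chaperone of the core O-glycan enzyme, fell by 1.31 on the log2 scale. Of 13 sialic acid and mucin-type glycan genes, 11 were tested in MIA PaCa-2 cells, 2 higher and 2 lower with a median of 0.15, and 12 in PANC-1 cells, NEU1 alone higher with a median of 0.10. All tested genes passed the threshold in 11.5% (higher) and 8.97% (lower) of cases in MIA PaCa-2 cells, and in 7.71% and 7.03% in PANC-1 cells. The test across lines called 1 of 12, against 4.71% of all genes. All 16 genes of GPI anchor synthesis were tested in both lines, with medians of -0.30 and 0.19, and PIGK, a subunit of the GPI transamidase, was the only gene past the threshold (-1.29 in MIA PaCa-2 cells). Across lines, edgeR's quasi-likelihood test called none of the 16, with 1 at an unadjusted p under 0.05 and 0 called by DESeq2. Of all 16381 genes, 3428 had an unadjusted p under 0.05 in edgeR, and DESeq2 called 1370 of 13740.

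Of the other markers of stem-like pancreatic cancer cells that were tested in both lines, CD44 and MET, neither passed the threshold in either line. CD44 stood at -0.80 (MIA PaCa-2) and -0.58 (PANC-1) as log2 fold changes (across lines, edgeR quasi-likelihood adjusted p = 0.0548). EPCAM had 0 and 1 counts in MIA PaCa-2 cells and 264 and 250 counts in PANC-1 cells, and PROM1 and LGR5 had none. CXCR4, a chemokine receptor that stayed under 1 CPM and was not tested, had 5 and 15 counts in MIA PaCa-2 and 4 and 0 counts in PANC-1 cells, the same directions as CD24. ALDH1A1, an aldehyde dehydrogenase, fell in MIA PaCa-2 cells from 938 to 468 CPM and had no count in PANC-1 cells. MET, the receptor of hepatocyte growth factor, had 0.46 and 0.47. Of 9 genes, 4 were tested in each line. CD24, which was chosen by its changes, was the 1 gene higher in MIA PaCa-2 cells. ALDH1A1 was the 1 gene lower there, with a median of -0.17, and CD24 was the 1 gene lower in PANC-1 cells, with a median of -0.46. Of all tested genes, 11.5% were higher and 8.97% lower in MIA PaCa-2 cells, and 7.71% and 7.03% in PANC-1 cells. Across lines edgeR's quasi-likelihood test called none of 5 genes, with 3 at an unadjusted p under 0.05, and DESeq2 called 1. Of all 16381 genes, edgeR called 4.71%, and 3428 had an unadjusted p under 0.05. DESeq2 called 1370 of 13740 genes.

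Of 11 factors known to act on EDN1 transcription, all were tested in MIA PaCa-2 cells, 4 higher and 1 lower with a median of 0.17, against 11.5% higher and 8.97% lower of all genes. JUN and FOS, which form AP-1, rose there from 2245 to 9941 counts and from 67 to 594 counts, with log2 fold changes of 1.99 and 2.96. RELA, an NF-kB subunit, and FOXO1 rose by 1.13 and 1.16, and KLF2, a factor that restrains EDN1 in endothelium, fell by 1.01 on the log2 scale. In PANC-1 cells none of the 10 tested factors passed the threshold (median 0.01), which 7.71% of all genes passed upwards and 7.03% downwards. FOXO1 was under 1 CPM and not tested there, with 8 counts under PBS and 2 under CBC, in the direction of EDN1. JUN and FOS had 0.45 and -0.08 there, and GATA2 had -0.77. Across lines edgeR's quasi-likelihood test called none of the 11, against 4.71% of all genes. It gave an adjusted p of 0.1 for JUN and 0.243 for FOS. In edgeR 3 of the 11 had an unadjusted p under 0.05, as had 3428 of all 16381 genes. DESeq2 called 1 of the 11, against 1370 of 13740 genes.

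The change of each member was also set beside that of the 14 protein-coding genes within 500 kb, 6 near CD24, 3 near EDN1 and 5 near INHBB. CRYBG1, PHACTR1 and ADTRP were untested in at least 1 line. None of the others was past the threshold in opposite directions. Of all 12502 genes tested in both lines, 27 (0.216%) were so in the direction of the members and 14 the other way, so none is near these low shares. The shares of all genes past the threshold were 11.5% higher and 8.97% lower in MIA PaCa-2 cells, and 7.71% and 7.03% in PANC-1 cells. The MIA PaCa-2 libraries allowed 12 to be tested, HIVEP1 (1.45) and ADTRP (2.44) near EDN1 higher, and PDSS2 (-1.03) and RTN4IP1 (-1.48) near CD24 lower. In PANC-1 cells 12 were tested, none higher, and BEND3 (-1.01), 89.6 kb from CD24, and GLI2 (-1.09), 384 kb from INHBB, lower. The nearest neighbours, MTRES1 at 52.6 kb from CD24 and RALB at 51.4 kb from INHBB, had changes of -0.32 and -0.44 in MIA PaCa-2 cells and of -0.17 and -0.08 in PANC-1 cells. CRYBG1, 398 kb from CD24, had 1 and 5 counts in MIA PaCa-2 cells and 7715 and 13523 counts in PANC-1 cells. QRSL1, TMEM185B, EPB41L5 and PTPN4 stayed within the threshold in both lines, and PHACTR1 near EDN1 had no count.

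**Figure D4:**
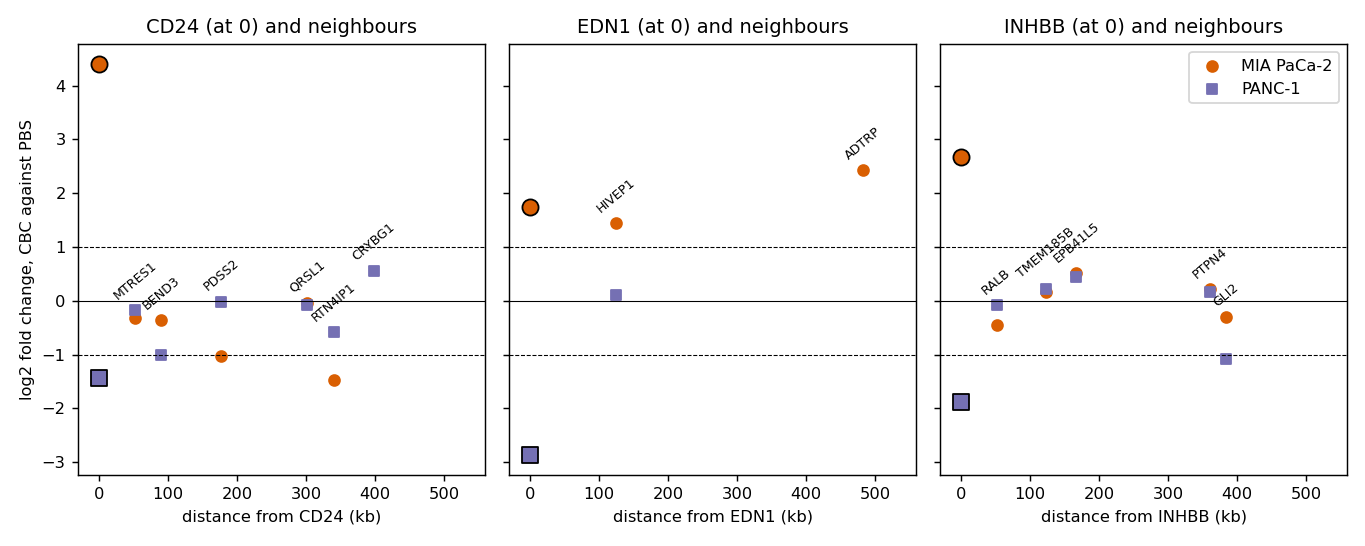
Log2 fold change of CBC against PBS (y axis) of CD24, EDN1 and INHBB (outlined, at 0 kb) and of the protein-coding genes within 500 kb that reached 1 CPM, against the distance in kb (x axis), in MIA PaCa-2 (circles) and PANC-1 cells (squares). No neighbour lies above 1 in MIA PaCa-2 and below -1 in PANC-1 cells.

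Several measurements bear on how these counts can be read. CD24 has near-identical pseudogenes, and the 4 matched by symbol held 3 counts in all over the 4 libraries. How reads that match several copies were counted is not stated, so these counts cannot show how many reads CD24 lost. Reads of the other line were sought with the 54 genes that had no count in control MIA PaCa-2 and at least 50 CPM in control PANC-1 cells. In CBC-treated MIA PaCa-2 cells 42 of them had no count, and together they had 35 counts, 0.0168% of their counts in CBC-treated PANC-1 cells. For CD24 that share was 1.42%, and none of the 54 genes reached it. CD24 itself had 1 count in control MIA PaCa-2 cells and so was not among the 54. Whether its counts came from reads of the other line was not tested.

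Markers of other cell types were low or differed between the lines, and their part in the results was not tested. Of the epithelial markers, KRT8, KRT18 and KRT19 were expressed in all 4 libraries, while CDH1 had no count in either MIA PaCa-2 library. The 5 epithelial markers summed to 3480 and 2550 CPM in the MIA PaCa-2 libraries, against 2040 and 1200 CPM in PANC-1. In PANC-1 cells CDH1, E-cadherin, was higher and KRT8 lower, 2 of 5 past the threshold, and none of the 3 tested in MIA PaCa-2 cells was. All tested genes passed it in 7.71% (higher) and 7.03% (lower) of cases in PANC-1 cells, and in 11.5% and 8.97% in MIA PaCa-2 cells. The 6 endothelial markers were looked at because endothelium is a main source of endothelin-1. They summed to 2.20 and 0.404 CPM in MIA PaCa-2 and to 0.308 and 0.622 CPM in PANC-1 cells, with PECAM1 and CLDN5 at 0 throughout. CDH5, the only one tested, fell in MIA PaCa-2 cells from 49 to 7 counts, a log2 fold change of -2.65. The 6 leukocyte markers summed to between 1.02 and 20.9 CPM, with PTPRC and CD3E at 0 throughout and ITGAM with 12 counts under PBS and 491 under CBC in MIA PaCa-2 cells. CD14 was lower in both lines (-3.33, SE 0.63, edgeR quasi-likelihood adjusted p = 0.0303). The 6 fibroblast markers summed to 371 and 95.6 CPM in MIA PaCa-2 and to 134 and 46.6 CPM in PANC-1 cells, nearly all from COL1A2 in MIA PaCa-2 and from COL1A1 in PANC-1 cells, with DCN and LUM at 0 throughout. COL1A2 fell in MIA PaCa-2 cells, from 8174 to 2348 counts, and had at most 1 count in the PANC-1 libraries. Its value across lines was -1.85 (edgeR quasi-likelihood adjusted p = 0.0364, and 0.0508 with DESeq2 size factors). That value rests on MIA PaCa-2 cells alone, so the fall was not replicated in the other line. The test across lines called 2.45% of all 16381 genes lower. The 7 acinar and islet markers summed to at most 0.0809 CPM.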

How the data were processed

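Poly(A) RNA of 4 libraries, 1 per cell line and treatment, was analysed. Reads were trimmed by the authors (cutadapt 2.7), mapped with STAR on GRCh38, and assigned by HTSeq to genes of Ensembl release 89. Whether HTSeq used strand, and in which mode, is not given in the sources used here. The deposited table holds raw counts for 58233 genes. The deposited CPM signal, scaled by the authors with TMM in edgeR, differed from a CPM computed here from the counts by at most 6.84e-09 in relative terms, and it was used as an alternative only.

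Of the identifiers, 57392 matched a symbol. Positions and exon lengths came from GENCODE release 44 on GRCh38. Values within a line were computed in edgeR 4.0.16 (R 4.3.3) with TMM over the 4 libraries, and intervals in scipy 1.17.1. With 21742775 to 27903667 counts per library, 3 counts are 0.11 to 0.135 CPM. The 2 contrasts over both lines used edgeR's quasi-likelihood test on the genes kept by its own filter, with treatment or cell line as a block. The pairing by cell line comes from the labels, and the paired deviations had a correlation of 0.923 across genes. Data were also simulated with 200 genes changed 4-fold and a coefficient of variation of 23%. There the test recovered 89.5% of the changed genes for the line contrast (15950 genes) and 91.0% for treatment (15970 genes). The false calls were 1.65% and 3.70%. Every simulated gene had that same variation, and none differed between the lines in its response to CBC. These rates therefore need not hold for the real libraries.

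The 3 members, the gene lists and the tests were chosen with earlier results of these data known. The text names the members, list genes past the threshold or with a stated role, the 5 nearest profiles per member, the 10 largest opposite changes with a mean of at least 10 CPM, and coding genes within 500 kb. The alternatives changed the scaling, prior count, filter, values, block and tool (DESeq2 1.42.0).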

Additional observations from a re-analysis of the deposited data

Results flagged for a closer look

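Each of the following genes was past the threshold of 1 in both lines with opposite signs, so that the single CBC library of one line moved one way and that of the other line moved the opposite way. The difference between the lines was not tested, since each condition had 1 library. As the difference of log2 fold changes, MIA PaCa-2 minus PANC-1, the values were 5.85 for CD24, 4.61 for EDN1, 4.57 for INHBB, 4.47 for TENT5C, 3.91 for FBXO32, 3.67 for IFIT1, 3.28 for PLCH2 and 3.27 for FERMT1. They were -3.71 for F2RL2 and -3.52 for DOCK11, which fell in MIA PaCa-2 cells and rose in PANC-1 cells.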

How the results depend on the processing

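The direction of every member in each line was the same under each scaling, prior count and pseudocount tried. The deposited CPM with a pseudocount of 1 shrinks low levels by construction. In MIA PaCa-2 cells it gave log2 fold changes of 0.72 for EDN1, which was then below the threshold of 1, 1.80 for CD24 and 2.13 for INHBB. The differences between the lines in response became 3.23 for CD24, 3.44 for EDN1 and 3.92 for INHBB. The PANC-1 minus MIA PaCa-2 differences under PBS became 8.77, 5.32 and 3.91 in the same order, and those under CBC became 5.54 for CD24 and 1.88 for EDN1. With a prior count of 5 the CD24 difference under PBS was 10.8, and with library totals the CD24 change in PANC-1 cells was -1.37. TMM within each line gives no value between lines and was not run there.

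The number of genes higher in MIA PaCa-2 and lower in PANC-1 cells was 27, and it was 193 without a filter, 6 with 1 CPM in both libraries or 5 CPM in 1, 12 with intervals past 2-fold and 14 with the deposited CPM. Requiring 1 CPM in both libraries left 2 of the 4 pathway list genes higher in PANC-1 cells.

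The line contrast called 7652 genes, and 4251 with no replicate block (no treatment term). Leaving out 1 library at a time without that term, where the line with 1 library is assumed to vary like the other, gave 1705 to 3838 genes. Over these fits the line difference was 0.762 to 3.93 for INHBB, 3.27 to 6.67 for EDN1 and 6.85 to 12.7 for CD24. With no filter beyond 1 count, INHBB was called (2.15, adjusted p = 3.83e-06). CBC against PBS across lines called 771 genes in edgeR, 1370 in DESeq2 and 2063 without a filter. With no replicate block edgeR called 0 genes, while 354 had a p under 0.05 before adjustment. The calls of INHBE, ACVR1, FYN, NEU1 and CD14 were kept under each alternative but that one. Depth limits CD24 and EDN1 in control MIA PaCa-2 cells, at 1 and 6 counts.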
